A study of Nicotiana tabacum with 6 samples.

Results

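EIL1 (ncbi_107814269, LOC107814269), EIL2 (ncbi_107810730, LOC107810730) and EILP (ncbi_107759657, LOC107759657) are 3 tobacco genes for EIN3-like transcription factors of ethylene signalling. They were taken by gene number from a table of 68476 loci, with names from RefSeq gene synonyms, and were chosen with their difference between the groups already known. That difference is therefore described here and not tested. The table held FPKM (fragment counts corrected for transcript length and for library size) for poly(A) RNA from mature leaves of Nicotiana tabacum. WT, the wild type, gave 3 libraries and OE-NtispH gave another 3, from plants overexpressing NtispH. That gene encodes the enzyme that closes the MEP pathway, the plastid route to terpenoid precursors. By the design text all plants had the same growing conditions. The labels give neither the promoter of the transgene nor the number of lines or plants behind the libraries, so the p-values speak of the spread among these libraries, possibly a technical one.

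Ethylene is a gaseous hormone of ageing, wounding and defence in leaves. In Arabidopsis, receptors of the endoplasmic reticulum keep the pathway off through the kinase CTR1 until ethylene binds them, and the signal then passes through EIN2 to the transcription factors EIN3 and EIL1. Those proteins are broken down by the F-box proteins EBF1 and EBF2 when ethylene is absent, and when they persist they bind promoters of target genes, among them genes of the ERF family of response factors. Much of this control acts on the protein, which a transcript level does not show.

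The locus that RefSeq names ISPH (LOC107760258) did not follow the labels, and whether fragments of the transgene were counted at it is not given in the labels. It was at 108.2, 3038 and 558.6 FPKM in WT replicates 1, 2 and 3 and at 2761, 684.6 and 853.7 in OE-NtispH replicates 1, 2 and 3, so its highest value stood in a library labelled WT. Each direction below is therefore between libraries as labelled. Leaf identity was checked with 10 mesophyll loci (of PsbO, PSBP, Lhcb, Rca and GAP genes), which had means of 31.1 to 3951 FPKM. Of 4 root alkaloid loci, 3 were at 0 in every library. The other, QPT, went against the rest of that list, with means of 31.1 FPKM in WT and 29.7 in OE-NtispH. The summed mesophyll level was 16730 to 19007 FPKM in WT and 10846 to 13926 in OE-NtispH, with all 10 loci lower in OE-NtispH and 2 of them past the limma test described below. Over all tested loci 0.567% were called lower and 66.3% had a log2 difference above 0. The 3 loci of the glandular trichome list summed to 141.5 to 217.5 FPKM in WT and 127.2 to 252.5 in OE-NtispH. They did not move together. NtPDR1 had means of 123.1 FPKM in WT and 180.8 in OE-NtispH, abs 10.5 and 10.7, and CYP71D20 39.3 and 8.55. CYP71D20 alone was at 3.67, 21.6 and 92.5 FPKM in WT replicates 1, 2 and 3, so the sum is not read as trichome content. Fewer cells of a type and less RNA per cell cannot be told apart in whole leaves. The share of summed FPKM in the top 100 loci was 30.6% to 32.2% in WT and 23.4% to 26.5% in OE-NtispH. The part of these shifts in the EIL values was not tested beyond the other scalings given below.

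EIL1, an abundant transcript of these leaves, was at 80.2, 71.5 and 65.4 FPKM in WT replicates 1, 2 and 3. It was at 127.8, 109.2 and 131.6 FPKM in OE-NtispH replicates 1, 2 and 3. The groups did not overlap, and the lowest OE-NtispH library was 1.36 times the highest WT library. The means were 72.4 ± 7.43 and 122.9 ± 12.0 FPKM (SD, n = 3), a ratio of 1.7. EIL1 was higher than 97.9% of the 40725 tested loci by its mean level, and its rank within a library lay between 628 in OE-NtispH replicate 3 and 1304 in WT replicate 3.

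EIL2, another EIN3-like gene of high level, was at 49.8, 45.5 and 38.4 FPKM in WT replicates 1, 2 and 3. It was at 75.8, 60.7 and 69.3 FPKM in OE-NtispH replicates 1, 2 and 3. Again the groups did not overlap, with a smaller gap of 1.22 between the lowest OE-NtispH and the highest WT library. The means were 44.6 ± 5.78 and 68.6 ± 7.54 FPKM (SD, n = 3), a ratio of 1.54. EIL2 stood above 96.1% of the tested loci by level and below EIL1 in each of the 6 libraries.

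EILP was a transcript of low level, at 0.991, 0.902 and 0.641 FPKM in WT replicates 1, 2 and 3. It was at 2.98, 2.62 and 1.52 FPKM in OE-NtispH replicates 1, 2 and 3. OE-NtispH replicate 3 lay nearer to the WT libraries than the other two did, without reaching them, and the gap was 1.54. The means were 0.845 ± 0.182 and 2.37 ± 0.757 FPKM (SD, n = 3), a ratio of 2.81. Only 21.0% of the tested loci had a lower mean. The order of levels was EIL1, EIL2 and EILP in every library. Within each group the lowest value of EIL1 was above the highest of EIL2, and across groups the OE-NtispH values of EIL2 overlapped the WT values of EIL1.

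**Figure D1:**
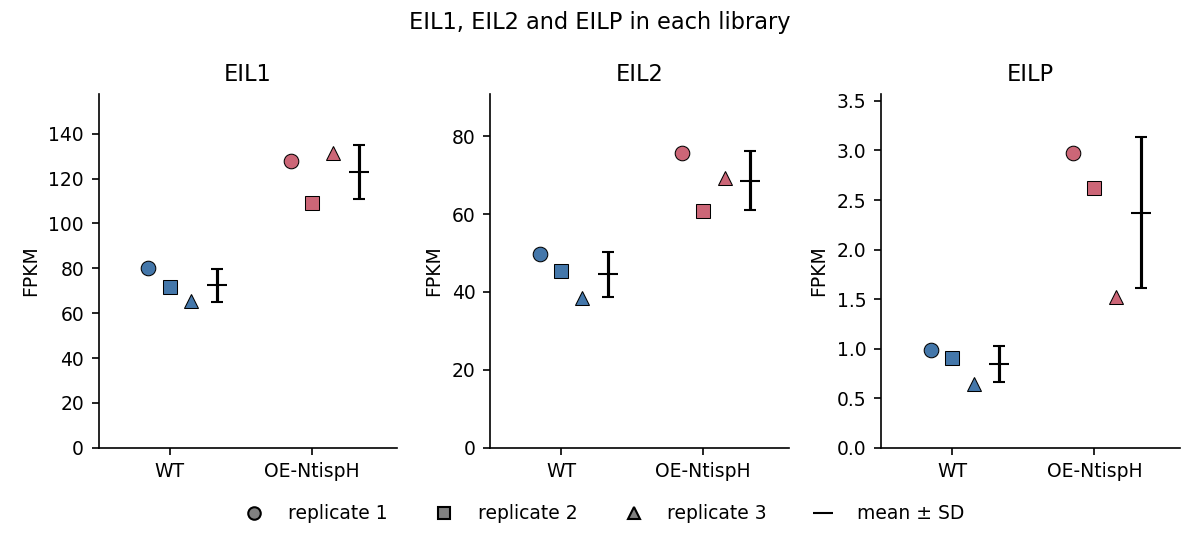
FPKM of EIL1, EIL2 and EILP in each library (vertical axes in FPKM, each from 0 and with its own scale), with the marker shape giving the replicate number and the bar the mean ± SD of 3 libraries. All 3 genes have every OE-NtispH library above every WT library, with means of 72.4 and 122.9 for EIL1, 44.6 and 68.6 for EIL2 and 0.845 and 2.37 for EILP.

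All 3 genes thus had OE-NtispH above WT in every library, a pattern shared by 23.9% of all tested loci, and one that was known when the genes were chosen. On the log2(FPKM + 1) scale the differences were 0.76 ± 0.14 for EIL1, 0.61 ± 0.14 for EIL2 and 0.85 ± 0.21 for EILP (SE of the limma fit). The addition of 1 understates the difference of EILP, whose log2 difference was 1.36 ± 0.32 with 0.1 added. The median log2 difference of all tested loci was 0.13, and relative to it the differences were 0.62, 0.48 and 0.72. These stood at the 96.5th, 93.6th and 97.4th percentile of the differences of all tested loci.

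In the fit over all loci (limma on log2(FPKM + 1), Benjamini-Hochberg adjustment at 0.05), 506 loci were called higher in OE-NtispH, or 1.24% of those tested, and 231 lower, or 0.567%. EIL1 was the only 1 of the 3 genes among the calls, which is stated as a description since the call was known when the genes were chosen. The split was 136 higher and 194 lower after median-of-ratios scaling, and 235 higher and 360 lower after quantile normalization. The total changed when single libraries were left out. Without WT replicate 1 limma called 0 loci (10208 had an unadjusted p under 0.05, against 10747 with all libraries). Without OE-NtispH replicate 1 it also called 0 (7216 at that unadjusted level). Whether this came from the library left out or from the smaller group was not tested. Leaving out WT replicate 2 gave 1 call and leaving out WT replicate 3 gave 16. There were 1356 calls with OE-NtispH replicate 2 left out and 3109 with OE-NtispH replicate 3 left out.

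The member values themselves moved less with the scaling. With median-of-ratios scaling, which divided the OE-NtispH libraries by 1.04 to 1.09 and the WT libraries by 0.935 to 0.988, EIL1 reached at most 81.2 in WT and at least 105.3 in OE-NtispH. EIL2 then lay between 41.1 and 50.5 and between 58.5 and 69.2. EILP lay between 0.686 and 1.0 and between 1.43 and 2.72. The groups of all 3 genes remained apart with this scaling, with rescaling to TPM (FPKM rescaled to the same sum in every library) and with quantile normalization, where the smallest gap was 1.12, for EIL2.

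The spread within a group lay on both sides of the median of loci of like level. It was above that median for EIL1 and EIL2 in WT and for EILP in OE-NtispH, and below it otherwise. Percentiles of the spread were not computed. The coefficient of variation (SD over mean) of EIL1 was 10.3% in WT and 9.74% in OE-NtispH, and that of EIL2 was 13.0% and 11.0%. The medians over 4828 loci with means from 20 to 200 FPKM were 8.82% in WT and 13.0% in OE-NtispH. EILP varied by 21.5% and 31.9%, beside medians of 21.6% and 23.5% over 11017 loci with a mean of 1 to 3 FPKM. From its lowest to its highest library EIL1 spanned 2.01-fold, EIL2 1.97-fold and EILP 4.65-fold.

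The copies were compared within each library. EIL1 exceeded EIL2 by 1.61, 1.57 and 1.7 times in WT replicates 1, 2 and 3 and by 1.69, 1.8 and 1.9 times in OE-NtispH replicates 1, 2 and 3. This ratio had means of 1.63 ± 0.0684 and 1.79 ± 0.107 (SD, n = 3), and the groups overlapped. Over the 6 libraries it ran only from 1.57 to 1.9.

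EILP did not keep its proportion to the other two in every library. EIL1 was 80.9, 79.2 and 102.1 times EILP in WT replicates 1, 2 and 3, and 42.9, 41.7 and 86.3 times EILP in OE-NtispH replicates 1, 2 and 3. OE-NtispH replicate 3 thus had a ratio within the WT range, and replicates 1 and 2 had a ratio well below it. EIL2 over EILP was 50.3, 50.4 and 59.9 in WT and 25.4, 23.2 and 45.4 in OE-NtispH, again with replicate 3 nearest to WT but here below all 3 WT values. With 1 added to each FPKM, EIL1 over EILP had a mean of 39.1 over the 6 libraries, so ratios to a gene this low depend on how small values are treated.

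**Figure D2:**
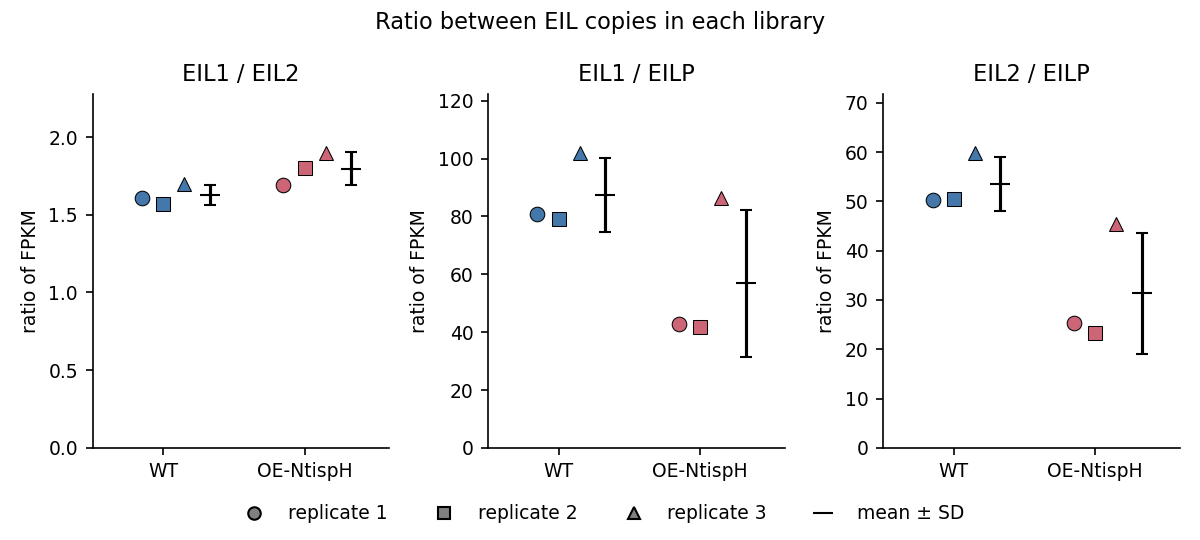
Ratio of FPKM between copies in each library (vertical axes from 0, no unit), marker shape for the replicate number and bars for the mean ± SD of 3 libraries. EIL1 / EIL2 stays between 1.57 and 1.9, while EIL1 / EILP and EIL2 / EILP are low in OE-NtispH replicates 1 and 2 (42.9 and 41.7 for EIL1 / EILP) and higher in replicate 3 (86.3).

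The libraries of a group were ranked alike by the 3 genes in WT and not in OE-NtispH. In WT, replicate 1 had the highest and replicate 3 the lowest value of all 3 genes, an order found in 24.8% of the tested loci. In OE-NtispH, replicate 3 was the highest for EIL1, the middle one for EIL2 and the lowest for EILP. Replicate 2 was the lowest of its group for EIL1 and EIL2, as in 38.1% of the tested loci. EIL1 and EIL2 lay on the same side of their group means in 5 of 6 libraries, EIL2 and EILP in 4 and EIL1 and EILP in 3. In WT the order of libraries by ISPH was another one: replicate 2, with 3038 FPKM of ISPH, had 71.5 of EIL1, between the other WT libraries. In OE-NtispH, ISPH fell from replicate 1 (2761 FPKM) to replicate 3 (853.7) and replicate 2 (684.6). This was the order of EIL2 but not of EIL1 or EILP.

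RefSeq names EIL4 (LOC107770026) and EIL5 (LOC107798783) as further genes of the family. EIL5 was at 39.7, 33.5 and 40.7 FPKM in WT and at 56.7, 42.2 and 55.2 in OE-NtispH, with a log2 difference of 0.42 ± 0.15 (SE; limma, adjusted p = 0.126). Its groups were apart by 1.04 as deposited and overlapped with median-of-ratios scaling and with quantile normalization. EIL4 was at 14.1, 11.6 and 9.95 FPKM in WT and at 18.95, 15.98 and 15.5 in OE-NtispH, with a log2 difference of 0.47 ± 0.15 (SE; limma, adjusted p = 0.0997). Its gap was 1.1 as deposited, 1.02 with median-of-ratios scaling and only 1.0 with quantile normalization. Neither gene passed the test, and both had smaller differences than EIL1, EIL2 and EILP. Whether the differences of the genes differ from each other was not tested, because 3 of them were chosen on that contrast.

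Summed over these 5 genes, EIL transcripts were at 167.6 ± 15.4 FPKM in WT and 262.0 ± 27.4 in OE-NtispH (SD, n = 3). EIL1 made up 42.2% to 48.2% of the sum over the 6 libraries, with means of 43.1% in WT and 46.9% in OE-NtispH. The share of EIL2 was 26.6% and 26.2%, that of EIL5 22.8% and 19.5%, that of EIL4 7.05% and 6.44% and that of EILP 0.501% and 0.916%. By level the family was ordered EIL1, EIL2, EIL5, EIL4 and EILP, but EIL2 and EIL5 were close in WT replicate 3, at 38.4 and 40.7 FPKM, where their order was turned. Tobacco is an allotetraploid, and fragments from near-identical parental copies can be split between loci, so the level of any single EIL locus is uncertain to that extent.

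**Figure D3:**
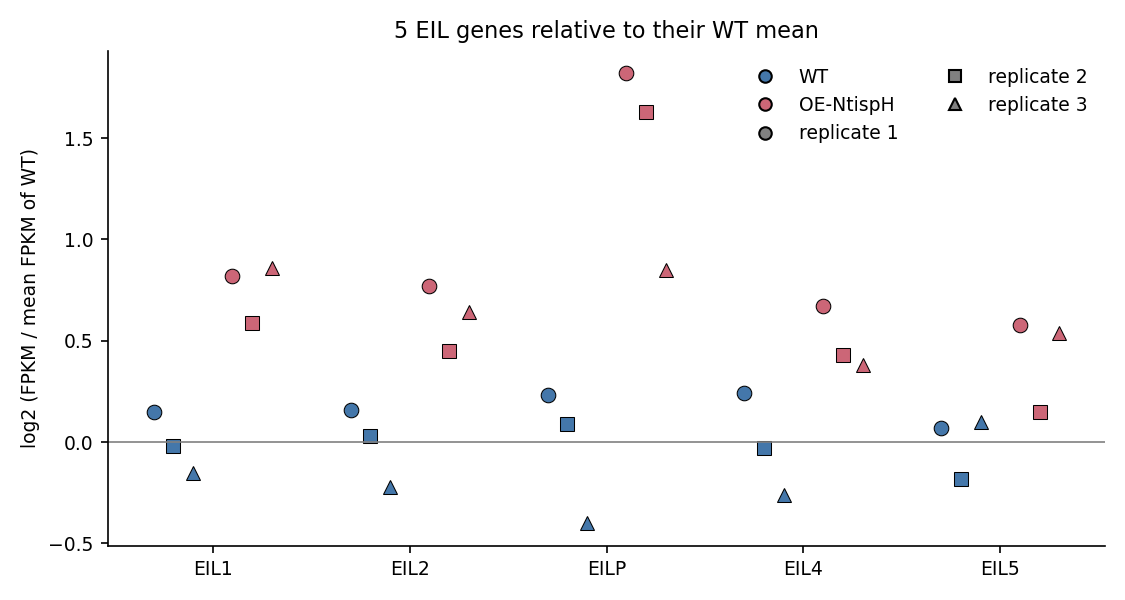
Level of 5 EIL genes in each library as log2 of FPKM over the mean FPKM of the WT libraries (no pseudocount; 0 is the WT mean), with colour for the group and marker shape for the replicate number. EILP reaches 1.82 and 1.63 in OE-NtispH replicates 1 and 2 but 0.85 in replicate 3, and the OE-NtispH libraries of EIL5 come down to 0.15.

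The other ethylene genes were 16 loci with RefSeq names of synthesis, perception, signalling and response, of which 14 were tested (ERS was added to the list by name after the gene table was opened; without it 13 were tested). None passed the test in either direction (limma, lowest adjusted p = 0.0647), and 5 had an unadjusted p under 0.05, all 5 higher in OE-NtispH and 0 lower. Over all tested loci 19.4% were higher and 7.03% lower at that unadjusted level. The median log2 difference of the 14 was 0.37, against 0.13 over all tested loci, and 9 were above 0, as were 66.3% of all tested loci. OE-NtispH lay above WT in every library for 7 of the 14 and below for 0, where the shares of all tested loci were 23.9% and 8.59%. These 7 hold for the values as deposited. The lowest OE-NtispH library was 1.01 times the highest WT library for ETR1 and NTHK1, 1.02 for CEF1 and 1.04 for EIL5 and ERS. It was 1.1 times for EIL4 and 1.19 for NtERF5. The groups of ETR1, NTHK1, CEF1, EIL5 and ERS overlapped with median-of-ratios scaling. That scaling divided the WT libraries by 0.935 to 0.988 and the OE-NtispH libraries by 1.04 to 1.09. The groups of EIL4 (by 1.02) and NtERF5 stayed apart. The share of all tested loci apart with that scaling was not computed.

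Among the receptors, all 3 had each OE-NtispH library above every WT library as deposited, by a narrow margin. That pattern, whatever the margin, was shared by 23.9% of all tested loci. The groups of all 3 receptors overlapped with median-of-ratios scaling. ETR1 (LOC107784797) was at 7.91, 6.76 and 6.38 FPKM in WT and at 11.2, 8.02 and 9.40 in OE-NtispH, a log2 difference of 0.39 ± 0.15 (SE; limma, adjusted p = 0.143). ERS (LOC107794639), a receptor of the same family, had means of 5.28 ± 1.00 and 6.96 ± 0.732 FPKM (SD, n = 3; limma, adjusted p = 0.191). NTHK1, listed as a receptor as well, was near the limit of the filter, with a mean of 0.552 ± 0.205 FPKM in WT and 0.895 ± 0.0922 in OE-NtispH (SD, n = 3; adjusted p = 0.303 by limma).

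Of the synthesis genes, ACO (LOC107781126) encodes the oxidase of the last step to ethylene. It was at 3.90, 4.02 and 10.2 FPKM in WT and at 61.9, 17.8 and 6.60 in OE-NtispH. The groups overlapped and OE-NtispH replicate 1 was far above the rest. The log2 difference of 1.68 ± 0.87 (SE) did not pass (limma, adjusted p = 0.293), and without OE-NtispH replicate 1 it was 0.88. The gene acs2 (LOC107829216), for an ACC synthase, the enzyme before it, had means of 16.0 ± 7.57 and 13.9 ± 0.517 FPKM (SD, n = 3; limma, adjusted p = 0.865), a difference that turned sign without WT replicate 3 (log2 0.25). ACS1 was listed at 0 in every library and ACS5 above 0 in OE-NtispH replicate 1 alone, at 0.036 FPKM, and neither was tested.

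Of the response factors, NtERF5 varied least within a group, by 1.19-fold in WT and 1.21-fold in OE-NtispH from the lowest to the highest library, and NtERF4 varied most in WT. NtERF5 (LOC107802932) was at 24.2, 21.9 and 20.3 FPKM in WT and at 34.8, 28.8 and 31.7 in OE-NtispH, with a log2 difference of 0.50 ± 0.12 (SE; limma, adjusted p = 0.0647, and from 0.0536 to 0.212 over 14 alternative settings). CEF1 (LOC107788512) was at 35.2, 25.2 and 26.9 FPKM in WT and at 59.0, 35.9 and 58.9 in OE-NtispH (limma, adjusted p = 0.0828). It passed without OE-NtispH replicate 2 (limma, adjusted p = 0.0312, the lowest of 14 settings that reach 0.246). ERF5 (LOC107832284) had means of 9.75 ± 2.38 and 14.3 ± 5.20 FPKM (SD, n = 3; limma, adjusted p = 0.358), and its groups overlapped.

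NtERF4 (LOC107790518), a tobacco ERF of the activator type, was at 0.713, 26.7 and 88.3 FPKM in WT replicates 1, 2 and 3 and at 13.7, 3.66 and 1.39 in OE-NtispH replicates 1, 2 and 3. Its WT libraries alone spanned 123.9-fold, where those of EIL1 spanned 1.23-fold. NtERF2 (LOC107769743), another activator, was at 0.425, 4.71 and 12.1 FPKM in WT and at 3.42, 1.10 and 0.267 in OE-NtispH. NtERF3 (LOC107778042), known as a repressor, was at 3.66, 6.26 and 27.6 FPKM in WT and at 16.8, 7.88 and 3.08 in OE-NtispH. All 3 were lowest in WT replicate 1 and highest in WT replicate 3, and highest in OE-NtispH replicate 1 and lowest in OE-NtispH replicate 3. In WT this order is the reverse of that of EIL1, EIL2 and EILP. The WT order is not particular to ethylene genes, since CYP71D20 had it too, at 3.67, 21.6 and 92.5 FPKM. In OE-NtispH replicates 1, 2 and 3 CYP71D20 was at 15.8, 3.68 and 6.155 FPKM, lowest in replicate 2. The share of all tested loci with the reverse WT order was not computed.

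NtERF1 (LOC107825044) had the same WT order, at 13.6, 36.7 and 76.6 FPKM, and was at 40.7, 21.8 and 29.5 in OE-NtispH. For NtERF1 to NtERF4 the groups overlapped and the differences were smaller than the spread between replicates (limma, adjusted p of 0.880, 0.525, 0.910 and 0.593). The sign of NtERF1 and NtERF3 turned when single libraries were left out, NtERF1 to 0.39 and NtERF3 to 0.57 without WT replicate 3, NtERF1 to 0.03 without OE-NtispH replicate 2 and NtERF3 to 0.35 without OE-NtispH replicate 3 (log2). The log2 difference of NtERF4, -1.56 in all libraries, was -3.18 without WT replicate 1, -0.33 without WT replicate 3 and, with OE-NtispH replicate 3 left out, -0.97. That of NtERF2, -1.06 in all libraries, was -1.93, -0.33 and -0.64 in the same order of omissions.

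**Figure D4:**
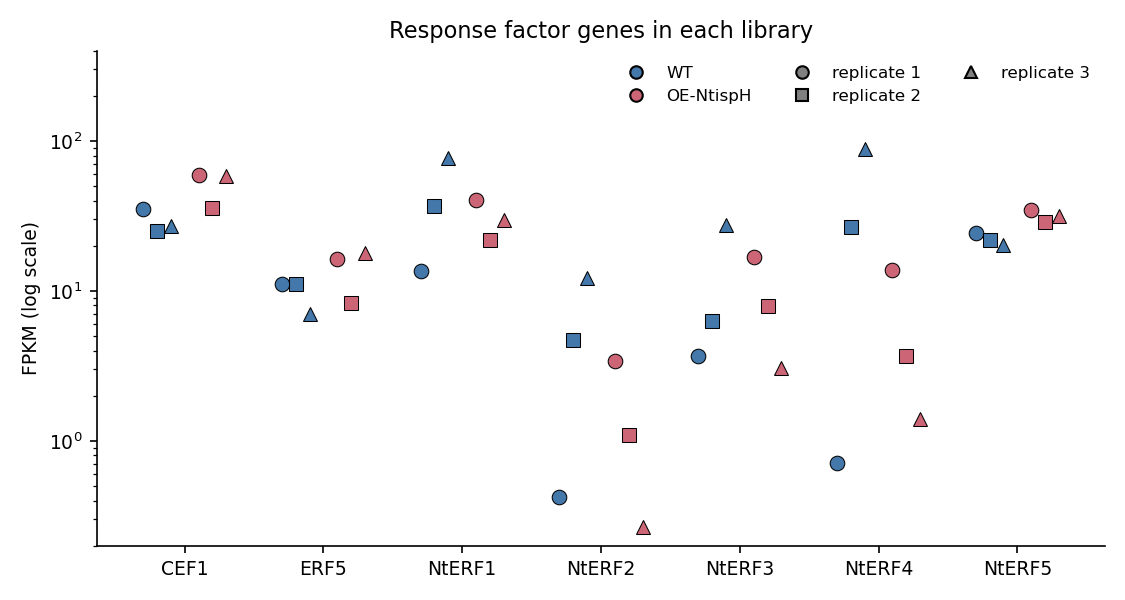
FPKM of 7 response factor genes in each library (log axis), with colour for the group and marker shape for the replicate number. NtERF5 has the narrowest range, from 20.3 to 34.8 FPKM over the 6 libraries. NtERF4 runs from 0.713 to 88.3 FPKM within WT, and NtERF2 and NtERF3 share its order of libraries within each group.

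**Figure D5:**
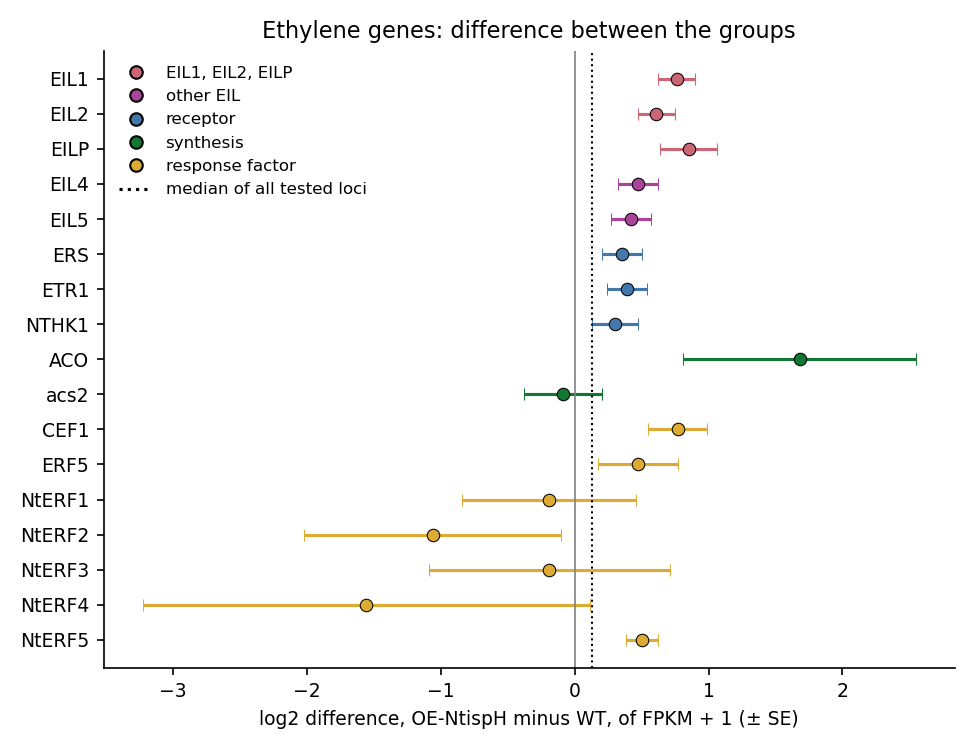
Log2 difference of FPKM + 1, OE-NtispH minus WT, with SE of the limma fit, for EIL1, EIL2, EILP and the 14 other ethylene genes tested, coloured by role; the dotted line is the median of all tested loci at 0.13. The EIL genes and receptors lie above that line with short bars, while the bars of ACO (1.68 ± 0.87) and of NtERF1 to NtERF4 are long, that of NtERF4 (-1.56 ± 1.67) the longest.

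The named genes most like each EIL gene were taken by Pearson's r of log2(FPKM + 1) over the 6 libraries, which share the difference between the groups, so r is a description only. PI-Ib (LOC107794480) and PI-Ia (LOC107787825), for proteinase inhibitors, came first for EIL1 with r of 0.995 and 0.993, followed by cpr2 (LOC107787047) with 0.992. For EIL2 the first was NtERF5 with 0.994, followed by a gene named actin (LOC107800553) with 0.994 and PI-Ia with 0.993. For EILP they were Acx1B (LOC107812035) with 0.996, C-7 (LOC107782952) with 0.989 and CYP82E5 (LOC107780157), a nicotine demethylase gene, with 0.987. An r of at least 0.95 was common: it was reached with EIL1 by 3.85%, with EIL2 by 4.18% and with EILP by 3.04% of the 36269 loci whose mean reached 1 FPKM.

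Loci next to the 3 genes in the RefSeq assembly ASM71507v2 did not show their pattern. The nearest tested neighbour of EIL1, LOC107774568, had means of 10.3 ± 0.875 and 11.4 ± 0.658 FPKM (SD, n = 3; limma, adjusted p = 0.497). That of EIL2, LOC107803844, had 1.65 ± 0.251 and 2.15 ± 0.418 (SD, n = 3; limma, adjusted p = 0.374). The neighbour of EILP, LOC107759658, lay lower in each OE-NtispH library, with means of 5.13 ± 0.684 and 3.96 ± 0.575 FPKM (SD, n = 3; limma, adjusted p = 0.227). EIL1 has 3 RefSeq transcripts and EIL2 and EILP have 1 each, and the table gives 1 value per locus.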

How the data were processed

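The authors deposited 1 table of FPKM values, 1 column per library, scaled by transcript length and mapped fragments. Tools named in the submitters' processing notes are RSEM, StringTie, HISAT2, Bowtie2 and fastp. Build, annotation and treatment of multi-mapping fragments: not given in the sources used here. Per the labels' protocols, poly(A) RNA was copied with random hexamers, and a strand-specific variant is described.

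Of 68476 loci, 49268 matched a RefSeq gene table by gene number, used for names and neighbours only. The 40725 loci whose mean reached 0.5 FPKM were compared on log2(FPKM + 1) with limma 3.58.1 in R 4.3.3 (two-sided, with trend and robust options, no replicate term), and p-values were adjusted by Benjamini-Hochberg over all of them with a threshold of 0.05. The number of reads is unknown. The commonest ratio of low values put the other 5 libraries at 1.03 to 1.18 times the depth of WT replicate 1, searched near 1 only.

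The 3 genes and the gene lists were chosen with earlier results of these data known. The text names the 3 genes, ISPH, all ethylene list genes by role, and for each EIL gene the 3 named loci of highest r. Neighbouring loci and spreads were added after the values were seen. Alternatives were another pseudocount (0.1), no filter or a mean of at least 2 FPKM, 3 other scalings, limma without trend and robust, a replicate block, and leaving out each library. Loci with similar proteins were not analysed here. Python 3.11.15 with numpy 2.4.6, pandas 2.3.3, matplotlib 3.10.9 and scipy 1.17.1 made the tables and plots.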

Additional observations from a re-analysis of the deposited data

How the results depend on the processing

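The log2 differences of EIL1 and EIL2 were above 0 under all 14 alternatives. That of EILP was above 0 under all but the filter at a mean of 2 FPKM, which EILP did not reach. Every OE-NtispH library was above every WT library, so only the other scalings could have turned these signs. For EIL1, EIL2 and EILP, median-of-ratios scaling gave 0.60, 0.46 and 0.76. Rescaling to TPM gave 0.78, 0.64 and 0.95, and quantile normalization 0.65, 0.49 and 0.79. The log2 differences moved by more than 1 SD for EIL1 with median-of-ratios scaling (0.60) and for EILP with a pseudocount of 0.1 (1.36). Leaving out each library gave 0.69 to 0.84 for EIL1, 0.51 to 0.70 for EIL2 and 0.72 to 1.05 for EILP. The mean ratio of EIL1 to EIL2 was 1.67 to 1.74 with each library left out. That of EIL1 to EILP was 66.2 to 78.3, and 39.1 with 1 added to each value, and that of EIL2 to EILP was 39.0 to 46.3, and 23.0 with 1 added.

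The count of loci past the test varied widely. In place of 506 higher and 231 lower it was 26 and 12 without a filter, 980 and 395 with a mean of at least 2 FPKM, 136 and 194 with median-of-ratios scaling, 235 and 360 with quantile normalization, and 38 and 15 with limma without trend and robust. With each library left out it ran from 0 to 2217 higher and from 0 to 892 lower. With the replicate block it was 48 and 20. The deviations of same-numbered libraries from their group means correlated by -0.13, 0.0449 and -0.16, and those of differently numbered ones by -0.0941 to 0.193. With deviations that sum to 0 in each group, this cannot decide whether the replicate numbers pair the libraries. The causes were not tested.

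Of the other ethylene genes 0 passed under every alternative but 1, the fit without OE-NtispH replicate 2, in which CEF1 passed (0 to 1 with each library left out). Signs turned only when a library was left out, for acs2 (-0.38 to 0.25), NtERF1 (-0.82 to 0.39) and NtERF3 (-0.74 to 0.57). The planned comparison of loci with similar proteins was not run. Without read counts no counting interval can be given for EILP at about 1 FPKM.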
